A study of Canis lupus familiaris with 36 samples.

Results

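The 7 pan-T surface antigens CD2, CD5, CD6, CD7, CD52, THY1 and CD96 were described across subtypes of canine lymphoma, with the question whether a T-lineage tumour of any single subtype had lost an antigen that T cells usually carry. They are 7 of the 15115 genes that had a probe set of their own on the array, and where several probe sets were paired with a gene, the brightest on average stood for it. Tumour tissue from 35 dogs had been mechanically dissociated, filtered and hybridised to 36 Affymetrix canine arrays. The T phenotype comprised 4 dogs labelled LBT, high grade and aged 3 to 10 at diagnosis, 4 with peripheral T-cell lymphoma (PTCL), aged 6 to 14, and 9 with T-zone lymphoma (TZL), low grade and aged 7 to 11. Of the PTCL dogs 3 were of high grade, and PTCL replicate 4 was of intermediate grade. The B phenotype comprised 2 dogs labelled BL, high grade and aged 2 to 5, 10 with diffuse large B-cell lymphoma (DLBCL), high grade and aged 4 to 14, and 5 with marginal zone lymphoma (MZL), low grade and aged 4 to 10. The labels state no unit for age, no treatment and no genotype. A dog labelled NBNT, of low grade and aged 8, entered no comparison. Each dog gave a single tumour, and Golden Retrievers made up 12 of the 17 T and 11 of the 17 B dogs. Breed was uneven among the T subtypes, with Golden Retrievers 3 of 4 in LBT, 1 of 4 in PTCL and 8 of 9 in TZL. In BL they were 1 of 2, in DLBCL 6 of 10 and in MZL 4 of 5. Males were 1 of 4 in LBT, 2 of 4 in PTCL and 6 of 9 in TZL. In BL males were 1 of 2, in DLBCL 4 of 10 and in MZL 1 of 5. The NBNT dog was a female Golden Retriever. The arrays DLBCL replicates 6 and 7 were of the same dog and were averaged. Replicate numbers were given here in the order of the deposited samples and only name a dog.

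Pan-T antigens are membrane proteins that mature T cells carry whatever their effector type, and pathologists use their absence as a sign of an abnormal T cell. CD2 is an adhesion receptor that helps T cells grip other cells, and CD5 and CD6 are related receptors with scavenger-receptor domains that dampen or tune signals from the T cell receptor. CD7 is an immunoglobulin-family receptor that appears early in T cell development, and CD52 is a very short peptide held in the membrane by a lipid anchor and is the target of the antibody alemtuzumab in humans. THY1 is a lipid-anchored glycoprotein found on mouse T cells and, in several species, on fibroblasts and some endothelium. CD96 is a receptor of T and NK cells for the nectin-like protein PVR.

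Values are log2 of the deposited intensities, and levels below log2 4 (intensity 16), called the minimum here, are too dim to set a size by. Where a group mean lies below it, the fitted difference is given but its size is uncertain. All 7 antigens passed the filter of at least 4 dogs at this minimum and were among the 7500 genes tested. Of the 12 probe sets paired with the antigens, 4 genes had more than 1. The gene IDs in the platform annotation are 607448 for CD2, 612338 for CD5, 483804 for CD6, 607675 for CD7, 403918 for CD52, 489365 for THY1 and 487972 for CD96. The T cell receptor chain CD3E averaged 11.75 in T and 7.15 in B, and the B cell antigen MS4A1 averaged 8.02 in T and 11.40 in B. PTCL replicate 4 stood apart from its label, with CD3E at 9.06, below 5 B dogs at 9.07 to 10.29, and MS4A1 at 10.80. The mean over 7 B cell markers of TZL replicate 3, at 7.39, was above that of 2 B dogs. A set of 6 arrays stood apart, with an actin 3' control between 14.03 and 14.45 against 10.79 to 12.45 on the other arrays. It held PTCL replicate 3, TZL replicates 1, 2 and 7 and DLBCL replicates 4 and 9. Within subtypes 22.4% of the genes tested differed between this set and the other arrays (limma, adjusted p under 0.05), and of the antigens only THY1 did.

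All 7 antigens were higher in T than in B, where 46.5% of all genes tested were called, 22.3% higher and 24.2% lower. The median log2 difference was 4.35 over the antigens and -0.03 over all genes tested. CD7 averaged 8.97 ± 0.91 in T and 4.65 ± 1.28 in B (SD, n = 17 each), a log2 difference of 4.32 (SE 0.37, limma adjusted p = 3.61e-11). CD2 had a smaller log2 difference of 2.10 (SE 0.23, adjusted p = 6.75e-09), and THY1 one of 2.40 (SE 0.55, adjusted p = 0.000596). CD6 and CD96 averaged below the minimum in B, at 3.51 and 3.06, so that the sizes of their differences of 4.43 (SE 0.44) and 5.21 (SE 0.45) are uncertain. With dim values raised to the minimum, T exceeded B 13.8-fold for CD6 and 17.4-fold for CD96. CD6 and CD96 reached the minimum mainly through the T dogs, so their passing the filter favoured a difference. In bulk tissue, fewer cells of a type and less RNA per cell cannot be told apart.

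Despite these differences the T and B dogs overlapped for every antigen. No antigen was below the minimum in every dog of a T subtype, over the 21 pairs of antigen and T subtype. Low values lay in some dogs of a subtype and not in others. A T dog was counted as in the B range for an antigen when it lay at or below the highest of the 17 B dogs, a description with no test. How often other genes overlapped between T and B, or were below the minimum throughout a T subtype, was not computed.

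**Figure D1:**
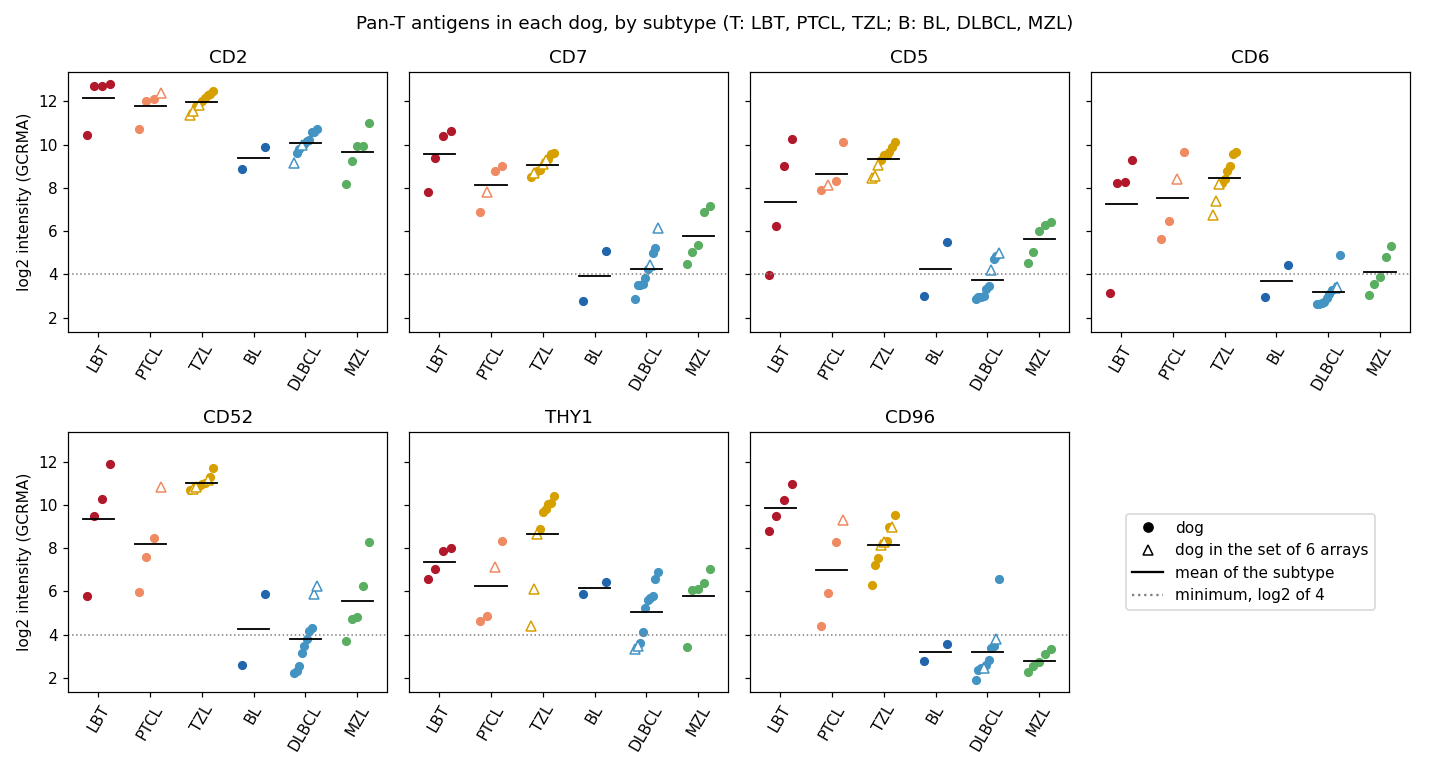
Log2 intensity of each antigen (vertical axis) in each of 34 dogs, grouped by subtype (horizontal axis), with T subtypes on the left and B subtypes on the right. Points are dogs, triangles are dogs on the 6 arrays that stood apart, short lines are subtype means and the dotted line is the minimum. TZL dogs lie close together for CD52, between 10.71 and 11.70, while LBT and PTCL dogs are spread over several log2 units.

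CD5 was low in 2 of the 4 LBT dogs. The LBT dogs had CD5 values of 9.01, 10.24, 3.96 and 6.24, against a lowest value of 8.44, a median of 9.52 and a highest of 10.11 in the 9 TZL dogs. LBT replicates 1 and 2 were thus at TZL levels, while LBT replicates 3 and 4 lay in the B range, whose highest value was 6.41 in MZL replicate 3. LBT replicate 3 was below the minimum. The log2 difference of LBT from TZL was -1.97 (SE 0.71, limma adjusted p = 0.0341), and CD5 was the only antigen called in this comparison, in which 30.1% of all genes tested were called, 17.8% higher and 12.4% lower. The call rested on few dogs, and was lost without LBT replicate 3 (-0.84, adjusted p = 0.364), LBT replicate 4 (-1.60, adjusted p = 0.130) or TZL replicate 9 (-1.87, adjusted p = 0.0518). It was also lost with no filter (adjusted p = 0.0571), with the compared groups only (0.0906) and with sex, breed and age as covariates (0.0501), over a range of 0.00265 to 0.0906 for 13 settings.

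CD6, which in the RefSeq gene table of the German Shepherd assembly is the coding gene next to CD5, was low in the same LBT dog. LBT values of CD6 were 8.28, 9.28, 3.13 and 8.24, and PTCL values were 6.46, 9.63, 8.40 and 5.63. The TZL dogs ranged from 6.74 through a median of 8.42 to 9.64. Only LBT replicate 3 fell in the B range and below the minimum, so LBT replicate 4 combined a low CD5 with a CD6 value at TZL level. The difference of LBT from TZL for CD6 was -1.21 (SE 0.76, adjusted p = 0.241) and turned to 0.16 without LBT replicate 3 (adjusted p = 0.886). Over the 17 T dogs CD5 and CD6 correlated at r = 0.82 (Spearman's rho = 0.81), and at r = 0.82 without the 2 dogs farthest from the median of CD5. After subtraction of the subtype means r was 0.82, and among the 9 TZL dogs alone it was 0.80. These are descriptions of dogs that share a platform and a normalization, and over the 17 T dogs no other of the 21 pairs of antigens had a higher r, while among the TZL dogs CD6 with THY1 did, at 0.84. Another probe set of CD6 was dim, with 7 of 34 dogs at the minimum, and gave a difference of LBT from TZL of 0.80 (adjusted p = 0.444).

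**Figure D2:**
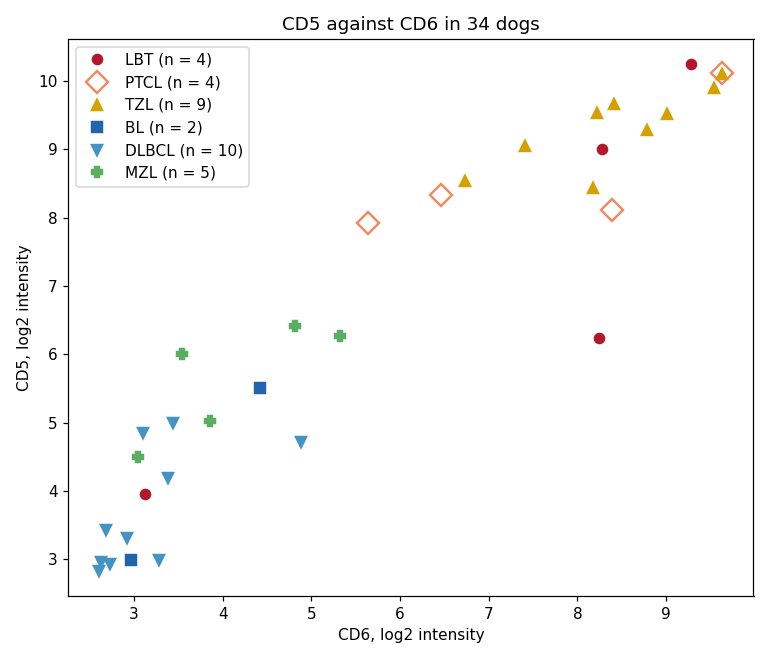
CD5 (vertical axis) against CD6 (horizontal axis), both as log2 intensity, in 34 dogs. Each symbol is a dog, with the subtype given by its shape and colour. LBT replicate 3 lies among the B dogs at 3.13 and 3.96, and LBT replicate 4 lies apart from the other T dogs, with CD6 at 8.24 and CD5 at 6.24.

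Markers of other cells differed in the same comparison. The B cell markers CD79A (-3.07, SE 0.83), CD79B (-3.67, SE 1.12) and CD22 (-1.75, SE 0.61) and the NK cell marker KLRD1 (-3.85, SE 0.96) were called lower in LBT than in TZL, and CD14 was called higher (1.56, SE 0.36), with adjusted p between 0.00147 and 0.0277. The LBT means of CD79B, CD22 and KLRD1 (3.83, 3.20 and 2.83) and the TZL mean of CD14 (3.25) were below the minimum. NCR3, also called lower, was below it in both group means and has no size. It reached the minimum in 4 TZL dogs and in 0 LBT, 0 PTCL and 0 B dogs, so its passing the filter favoured a difference. Of the 7 macrophage markers CD14 alone was called, and their median difference was -0.67. CD68, CD163, CSF1R, C1QA, C1QB and C1QC had lower means in LBT without a call. The mean over 7 B cell markers was 2.48 to 5.65 in LBT and 3.49 to 7.39 in TZL, and that over 6 NK and cytotoxic cell markers 2.45 to 4.38 and 2.60 to 6.25. Over the 7 macrophage markers it was 3.44 to 4.90 in LBT and 2.54 to 6.96 in TZL. The part of these cells in the CD5 difference was not tested.

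CD3E was high in the dogs with low CD5. LBT replicate 3 had CD3E at 11.52 and LBT replicate 4 at 12.07, against 11.25 to 12.24 in the 9 TZL dogs. The mean log2 value over 7 B cell markers was 3.40 in LBT replicate 3 and 5.65 in LBT replicate 4, against 7.29 to 8.52 in the B dogs. Of these markers MS4A1 was at 6.70 in LBT replicate 3 but at 10.67 in LBT replicate 4, close to the lowest B value of 10.81. CD2 stood at 12.69 in LBT replicate 3 and at 12.82 in LBT replicate 4, above every TZL dog. The actin 3' control less the 5' control, a measure of RNA quality, was 3.84 in LBT replicate 3 and 1.06 in LBT replicate 4. In the TZL dogs outside the array set that stood apart it was 0.60 to 2.59. The part of RNA quality in the CD5 values was not tested.

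CD52 was uniformly bright in TZL and uneven in the other T subtypes. The TZL dogs lay between 10.71 and 11.70 with a median of 10.95 (SD 0.32). LBT values were 5.80, 9.50, 10.27 and 11.88, and PTCL values were 8.46, 5.98, 10.81 and 7.59. LBT replicate 1 and PTCL replicates 2 and 4 were in the B range, which reached 8.27 in MZL replicate 3. Without that MZL dog the B range ended at 6.25, and LBT replicate 1 and PTCL replicate 2 still lay in it.

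CD52 was 7.05-fold lower in PTCL than in TZL (log2 difference -2.82, SE 0.90, limma adjusted p = 0.0332). It was the only antigen called in this comparison, in which 13.7% of all genes tested were called, 7.60% higher and 6.07% lower. The call was lost without PTCL replicate 1 (-2.90, adjusted p = 0.0544), PTCL replicate 2 (-2.07, adjusted p = 0.200) or PTCL replicate 4 (-2.61, adjusted p = 0.0807), and with no filter (adjusted p = 0.0579), over a range of 0.00971 to 0.0579 for 13 settings. LBT had a difference from TZL of -1.67 (SE 0.90, adjusted p = 0.161), with an interval from -3.49 to 0.16. Without LBT replicate 4, the brightest of its group, that difference was -2.50 (adjusted p = 0.0476), and without LBT replicate 1, the dimmest, it was -0.48 (adjusted p = 0.742). Among the arrays that stood apart CD52 was higher than on other arrays of the same subtype by 1.54 (SE 0.67, adjusted p = 0.0997), and PTCL replicate 3, the brightest PTCL dog, was of that set. The macrophage markers CD14 (2.37, SE 0.36) and CD68 (1.98, SE 0.59) and the endothelial marker KDR (2.39, SE 0.62) were higher in PTCL than in TZL (adjusted p = 4.76e-05, 0.0219 and 0.00872). The TZL means of CD14 and KDR, at 3.25 and 2.51, were below the minimum. KDR reached the minimum in 2 LBT, 2 PTCL, 0 TZL and 0 B dogs, so its passing the filter favoured this difference. PECAM1, the other endothelial marker tested, was not called (0.82, adjusted p = 0.635). Of the 7 macrophage markers 2 were called higher and 0 lower, with a median difference of 1.32. C1QB (-0.83) and C1QC (-0.72) were lower in PTCL without a call, and C1QA was level (0.0012). The mean over 7 macrophage markers was 4.30 to 7.22 in PTCL and 2.54 to 6.96 in TZL, with 0 and 1 of the 7 below the minimum in every dog of the group. The part of other cells in the CD52 difference was not tested.

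LBT replicate 1 and PTCL replicate 2 had low CD52 beside a high CD3E. CD3E stood at 11.83 in LBT replicate 1 and at 11.77 in PTCL replicate 2. The mean over the B cell markers was 2.48 and 3.27 in these 2 dogs, at the low end of the 17 T dogs. The actin 3' control less the 5' control was 2.90 in LBT replicate 1 and 4.54 in PTCL replicate 2. It was 0.60 to 2.59 in the TZL dogs outside the array set and 6.66 to 8.86 in those on it, all bright in CD52. The part of RNA quality in these values was not tested.

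CD2 differed least between the means of the T subtypes. Its values were 12.72, 10.46, 12.69 and 12.82 in LBT, and 12.004, 12.09, 12.38 and 10.70 in PTCL, while TZL ranged from 11.38 through 11.99 to 12.48. LBT replicate 2 and PTCL replicate 4 were the only T dogs in the B range for CD2. CD2 was above the minimum in every B dog, between 8.18 and 10.98. Differences between the T subtypes were small for CD2, at 0.20 (interval -0.64 to 1.03) for LBT and -0.18 (-1.02 to 0.65) for PTCL, both against TZL. The sign of the LBT difference changed with sex, breed and age as covariates (-0.071), without the 6 arrays (-0.0023) and without LBT replicate 4 (-0.020), and that of the PTCL difference without PTCL replicate 4 (0.18). The other probe set of CD2 followed the one used over the 17 T dogs at r = 0.98.

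CD7 stood at 7.82, 10.63, 9.39 and 10.37 in LBT and at 9.02, 8.80, 7.81 and 6.89 in PTCL. The TZL dogs lay between 8.49 and 9.63 with a median of 9.11. Only PTCL replicate 4 reached the B range, which ended at 7.14 in MZL replicate 3 and at 6.87 without that dog, just below PTCL replicate 4. CD7 was not called between T subtypes. LBT differed from PTCL by 1.43 (SE 0.66, adjusted p = 0.358), LBT from TZL by 0.48 (SE 0.56, adjusted p = 0.551) and PTCL from TZL by -0.95 (SE 0.56, adjusted p = 0.284).

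THY1 was among the 22.4% of genes tested that differed on the arrays that stood apart. On these arrays THY1 was lower than on other arrays of the same subtype by 2.12 on the log2 scale (SE 0.62, adjusted p = 0.0122). The TZL dogs on them, replicates 1, 2 and 7, had THY1 at 8.64, 4.38 and 6.12, against 8.87 to 10.42 in the 6 other TZL dogs. LBT values were 8.00, 6.56, 7.86 and 7.02, and PTCL values were 8.31, 4.87, 7.13 and 4.61. PTCL replicate 3, at 7.13, was of the array set and was not the lowest PTCL dog. The B dogs ranged from 3.34 to 7.02, so that LBT replicate 4 lay barely above the highest of them, and DLBCL replicates 4 and 9, also of the array set, had 3.45 and 3.34. The part of RNA quality in these values was not tested.

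Over all dogs THY1 differed by -1.31 in LBT (SE 0.90, adjusted p = 0.284) and by -2.44 in PTCL (SE 0.90, adjusted p = 0.0679) from TZL, and neither was called. Without the 6 arrays both were called, at -2.45 for LBT (SE 0.69, adjusted p = 0.00960) and -3.88 for PTCL (SE 0.76, adjusted p = 0.00236), and with the set as a block PTCL was (-2.62, adjusted p = 0.0192) while LBT was not (-2.02, adjusted p = 0.0528). The PTCL difference was also called without TZL replicate 2 (-2.98, adjusted p = 0.00990), TZL replicate 7 (-2.76, adjusted p = 0.0340) or PTCL replicate 1 (-3.13, adjusted p = 0.0298), and over all dogs left out in turn it lay between -3.13 and -1.90, with adjusted p up to 0.245. It was called with the other probe set of THY1 (-2.96, adjusted p = 0.0162), which followed the one used at r = 0.99 over the 17 T dogs, and over 14 settings the adjusted p ranged from 0.00236 to 0.212. THY1 was the antigen that did not separate every T subtype from B. PTCL exceeded B by 0.84 (interval -0.85 to 2.53, adjusted p = 0.501) and LBT by 1.97 (0.28 to 3.66, adjusted p = 0.0635), while TZL exceeded B by 3.28 (SE 0.62, adjusted p = 5.91e-05). The LBT difference from B was called without TZL replicate 2 (adjusted p = 0.0293), without the 6 arrays (1.71, adjusted p = 0.0274) and with the compared groups only (adjusted p = 0.0198), over a range of 0.0198 to 0.147 for 14 settings. The mean over 7 stroma markers was 2.27 to 3.17 in LBT, 2.75 to 4.70 in PTCL and 2.58 to 4.52 in TZL, with 4, 3 and 4 of the 7 below the minimum in every dog of the group. Of these 7, 0 of the 4 tested were called between T subtypes by limma (in PTCL against TZL their median difference was 0.56). In the B dogs the stroma mean was 2.19 to 8.35. It was highest in DLBCL replicate 11 (8.35) and MZL replicate 2 (7.28), which also had the highest THY1 of the B dogs, at 6.87 and 7.02. The part of stroma in the THY1 values was not tested.

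**Figure D3:**
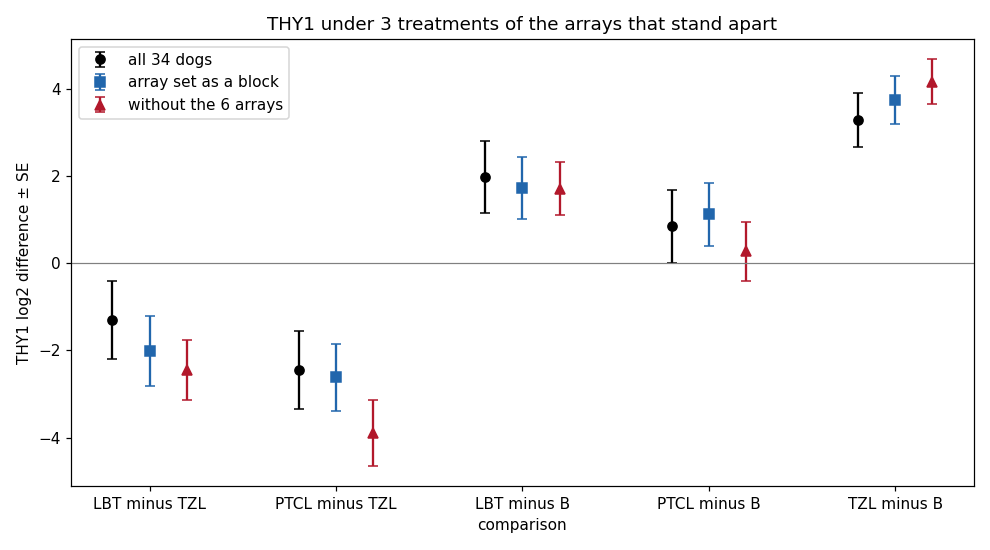
THY1 log2 difference with its standard error (vertical axis) for 5 comparisons (horizontal axis), over all 34 dogs, with the 6 arrays that stood apart as a block, and without them. The difference of PTCL from TZL is -2.44 over all dogs and -3.88 without the 6 arrays, and that of LBT from TZL is -1.31 and -2.45.

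Among the T subtypes CD96 had its highest mean in LBT and its lowest in PTCL, with no difference that passed the test. LBT values were 10.95, 9.49, 8.78 and 10.20, and PTCL values were 5.91, 8.29, 9.32 and 4.41. The TZL dogs ranged from 6.31 through 8.27 to 9.51. All 4 LBT dogs were above the TZL median, and PTCL replicates 1 and 4 were below every TZL dog. In B, 16 of 17 dogs were below the minimum, and DLBCL replicate 3 alone stood at 6.55. PTCL replicates 1 and 4 and TZL replicate 3 lay in the B range on account of that dog, and without it no T dog did.

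LBT exceeded PTCL in CD96 by 2.87 on the log2 scale (SE 0.83, limma adjusted p = 0.105), and 0 of 7 antigens were called in this comparison, in which 0.680% of all genes tested were called, 0.467% higher and 0.213% lower. At an unadjusted p under 0.05 there were 2 antigens, CD7 and CD96, and 934 of all genes. The CD96 difference was called with another probe set (3.48, adjusted p = 0.0111), with the mean of the probe sets (2.04, adjusted p = 0.0438), without the 6 arrays (3.65, adjusted p = 0.0463) and with low values set to the minimum (adjusted p = 0.0394), over a range of 0.0111 to 0.587 for 14 settings. It was also called without DLBCL replicate 3 (adjusted p = 0.0453), PTCL replicate 2 (3.31, adjusted p = 0.0422) or PTCL replicate 3 (3.65, adjusted p = 0.0265). Without PTCL replicate 4 it was 2.02 (adjusted p = 0.400). Against TZL the LBT difference was 1.72 (SE 0.71, adjusted p = 0.0649), and 6 of 14 settings called it, with adjusted p from 0.0164 to 0.117. Leaving out DLBCL replicate 3, TZL replicate 5, PTCL replicate 3 or PTCL replicate 4 also brought it to adjusted p = 0.0297, 0.0452, 0.0456 and 0.0411, while without LBT replicate 1 it was 1.35 (adjusted p = 0.224). PTCL differed from TZL by -1.16 (SE 0.71, adjusted p = 0.307). A further probe set paired with CD96 was below the minimum in all 34 dogs and gave no level.

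**Figure D4:**
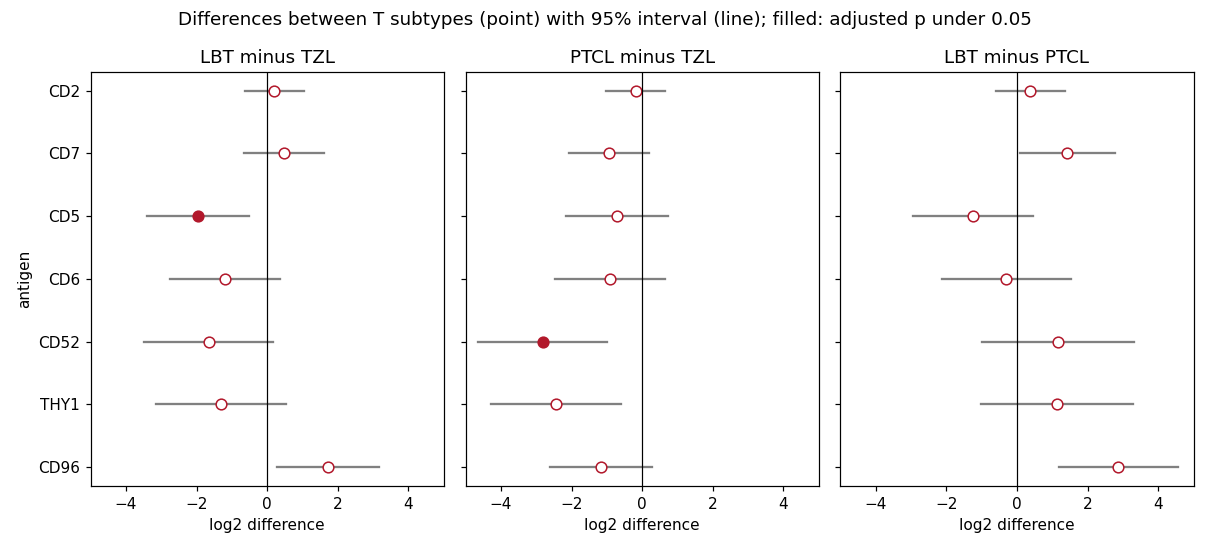
Log2 difference (horizontal axis) of each antigen (vertical axis) between T subtypes, with 95% intervals as lines and filled points where the limma adjusted p was under 0.05. CD5 in LBT against TZL (-1.97) and CD52 in PTCL against TZL (-2.82) are the filled points.

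Read by dog, low antigens were found in 10 of the 17 T dogs. In LBT 6 of 28 values lay in the B range, in PTCL 8 of 28 and in TZL 3 of 63. All 4 LBT dogs, 3 of 4 PTCL dogs and 3 of 9 TZL dogs had at least 1 antigen in the B range, and without THY1 the counts were 4, 3 and 1. With the highest B dog of each antigen left out, they were 4, 2 and 2, and both of these alternatives were chosen after seeing the data. These counts follow from a limit set by the B dogs, and the difference between subtypes in them was not tested. The matching share over all genes tested was not computed, so the counts do not show a trait particular to these antigens. PTCL replicate 4, the dog of intermediate grade, had 5 of 7 antigens in the B range, namely CD2, CD7, CD52, THY1 and CD96. Its CD3E was 9.06, the lowest of the 17 T dogs, its mean over the T cell receptor list 7.41, also the lowest, and its mean over the B cell markers 7.28, against 7.29 for the lowest B dog. PTCL replicate 3 and TZL replicates 1, 4, 5, 6, 8 and 9 had no antigen in the B range.

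**Figure D5:**
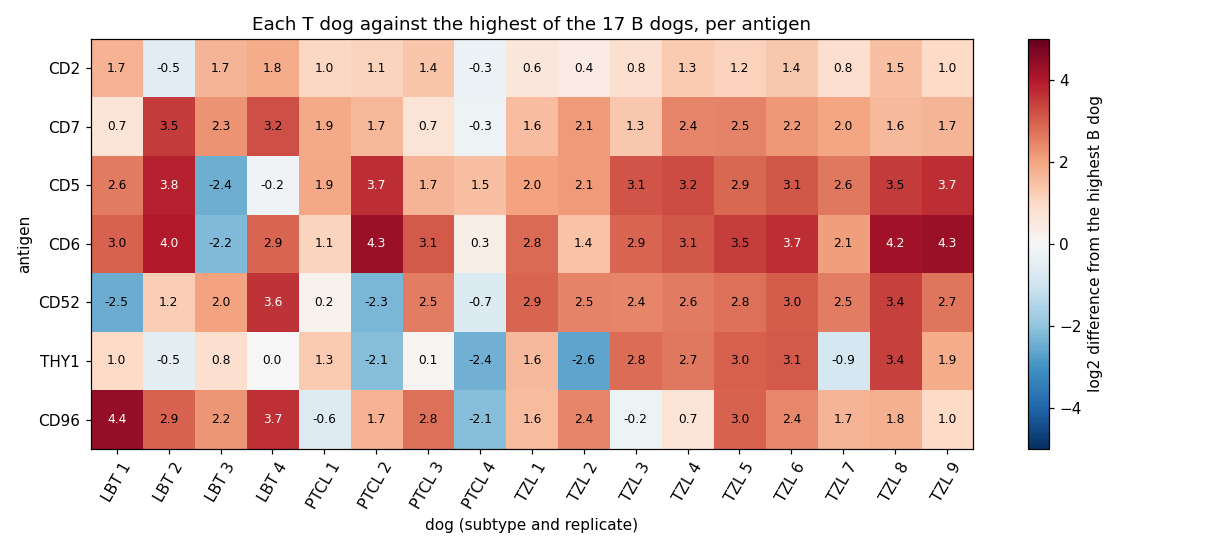
Log2 value of each antigen (rows) in each of the 17 T dogs (columns) minus that of the highest of the 17 B dogs, with red above and blue at or below it and the difference printed in each cell. The blue cells lie in different rows for LBT replicates 1, 2 and 3, and PTCL replicate 4 has 5 blue cells.

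The order of the subtype means differed between antigens. TZL had the highest mean for CD5, CD6, CD52 and THY1, and LBT had it for CD2, CD7 and CD96. PTCL had the lowest mean of the T subtypes for CD2, CD7, CD52, THY1 and CD96, and LBT for CD5 and CD6. Apart from CD5 in LBT and CD52 in PTCL, both against TZL, no difference between T subtypes passed the adjusted threshold of limma. The SD was smallest in TZL for 5 of the 7 antigens, all but THY1 and CD96. The same share over all genes tested was not computed, and TZL held 9 dogs against 4 in LBT and 4 in PTCL. This count is therefore a description and not a result about the antigens. Against the B dogs 6 of 7 antigens were higher in LBT, 6 in PTCL and 7 in TZL, THY1 being the one not called in LBT and in PTCL. Of all genes tested 35.0% were called in LBT, 18.9% higher and 16.1% lower, 21.9% in PTCL, 11.1% higher and 10.8% lower, and 49.5% in TZL, 22.4% higher and 27.1% lower. These 3 comparisons share the B dogs. The smallest of the called differences was 1.92 for CD2 in PTCL (SE 0.38, adjusted p = 0.000471), and the largest as fitted was 6.79 for CD96 in LBT (SE 0.65, adjusted p = 2.44e-09), against 6.66 for CD52 in TZL (SE 0.61, adjusted p = 6.30e-10). With dim values raised to the minimum the order turned, at 5.71 for CD96 in LBT and 6.18 for CD52 in TZL. CD6 in PTCL was not called with its dim probe set (1.44, adjusted p = 0.134, range 6.76e-05 to 0.134 over 14 settings).

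Among the B tumours CD5, CD7 and CD52 had lower means in DLBCL than in MZL, but no difference passed the test. CD5 had a median of 3.38 in the 10 DLBCL dogs, from 2.84 to 5.00, and values of 4.50, 6.00, 6.41, 6.27 and 5.02 in the 5 MZL dogs. The log2 difference of DLBCL from MZL was -1.92 for CD5 (SE 0.65, adjusted p = 0.193), -1.55 for CD7 (SE 0.51, adjusted p = 0.185) and -1.74 for CD52 (SE 0.82, adjusted p = 0.355). The DLBCL means of CD5 and CD52, at 3.72 and 3.81, were below the minimum, as were 6 of the 10 dogs for each, and with dim values raised to it the differences were -1.37 for CD5, -1.27 for CD7 and -1.15 for CD52. Limma called 0 of 7 antigens and 0% of all genes in this comparison, with 3 antigens and 977 genes at an unadjusted p under 0.05. With array weights CD5 (-1.90, adjusted p = 0.0348) and CD7 (-1.69, adjusted p = 0.0273) were called. The 10 genes of the T cell receptor list had a median difference of -0.84 in the same direction, with 0 called, and the part of admixed T cells in these values was not tested. MZL replicate 3 had the highest value of the B dogs for CD5, CD7 and CD52, and DLBCL replicate 3 the highest of the DLBCL dogs for CD96 and, at 4.88, for CD6. The difference between the grade steps, PTCL minus TZL less DLBCL minus MZL, was called by limma for 0 of 7 antigens and for 1.96% of all genes tested, 1.21% with a positive and 0.747% with a negative difference, and at an unadjusted p under 0.05 for 0 antigens and 1054 genes.

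Of the ligands and partner receptors of the antigens, 3 of 10 listed genes were tested. CD226, which competes with CD96 for PVR, was higher in T than in B by 3.84 (SE 0.36, limma adjusted p = 2.25e-10). Its B mean of 3.13 was below the minimum, which 17 T dogs and 1 B dog reached. That size is therefore uncertain, and passing the filter favoured a difference. CD226 was lower in PTCL than in TZL by a log2 difference of -2.17 (SE 0.54, adjusted p = 0.00644). ALCAM, the ligand of CD6, was higher in T by 0.79 (SE 0.29, adjusted p = 0.0231) but dim, with means of 3.22 in T and 2.42 in B. It reached the minimum in 5 T dogs and 0 B dogs, so its passing the filter favoured a difference, and its size is uncertain. CD48, a ligand of CD2 in rodents, averaged 11.17 in T and 11.38 in B and was not called. PVR, NECTIN1, NECTIN2 and TIGIT did not pass the filter. The median difference of the 3 tested genes was 0.79 between T and B.

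Of the 10 genes that act inside the cell beneath the antigens or the T cell receptor, 7 were higher and 2 lower in T than in B, with a median of 1.44. FYN (2.97, SE 0.23), LCK (4.15, SE 0.39) and LCP2 (1.93, SE 0.19) were higher in T, with adjusted p = 5.97e-12, 2.34e-10 and 1.15e-09. PSTPIP1, which binds the tail of CD2, was higher in T by 3.37 (SE 0.40, adjusted p = 3.41e-08), with its B mean of 3.46 below the minimum. Of the 2 genes lower in T, PTPN6, a phosphatase of lymphocytes and myeloid cells, had the smaller p (-0.95, SE 0.15, adjusted p = 4.28e-06). Between T subtypes PSTPIP1 was lower in LBT (-2.24, SE 0.48, adjusted p = 0.000716) and in PTCL (-2.15, SE 0.48, adjusted p = 0.00284) than in TZL. UBASH3A, a suppressor of T cell receptor signalling, was lower in PTCL than in TZL (-2.84, SE 0.57, adjusted p = 0.000984). Between PTCL and TZL 0 of these 10 genes were higher and 3 lower, with a median of -0.45, and between LBT and TZL 0 were higher and 1 lower, with a median of -0.03. The median over all genes tested was 0.03 and 0.05 in these 2 comparisons.

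Of the 10 genes of the T cell receptor complex and its co-receptors, 8 were higher and 0 lower in T than in B by limma. CD28 (6.10, SE 0.30, adjusted p = 2.25e-17), TRAT1 (6.77, SE 0.46), CD247 (3.64, SE 0.29) and LAT (5.15, SE 0.43) had the smallest p. The B means of CD28 and LAT, at 2.89 and 3.95, were below the minimum. CD28 reached the minimum in 17 T dogs and 1 B dog, so its passing the filter favoured a difference. Only the co-receptor genes differed between T subtypes. CD8A was lower in LBT (-4.33, SE 1.02, adjusted p = 0.00173) and in PTCL (-3.67, SE 1.02, adjusted p = 0.0144) than in TZL, and CD8B in LBT (-5.17, SE 1.23, adjusted p = 0.00184), while no CD3 chain was called. CD8A and CD8B were below the minimum in all 4 LBT dogs, and CD8A in all 4 PTCL dogs, so these sizes are uncertain. CD8A reached the minimum in 6 TZL dogs and 2 B dogs, so its passing the filter through TZL favoured these differences.

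The genes most like each antigen were ranked by Pearson's r over the 17 T dogs among all genes tested, as a description with no p, and the top of such a ranking is high by selection. CD52 was followed most closely by ALDOC (r = 0.91, rho = 0.86), SH3BGRL3 (0.89, 0.83) and LSP1 (0.89, 0.71). THY1 was followed by RHOF (0.86, 0.85), PARP8 (0.85, 0.82) and ARHGAP30 (0.85, 0.87), and CD96 by TRAT1 (0.85, 0.82), TAX1BP3 (0.85, 0.90) and ANXA3 (0.85, 0.76). CD5 was followed by TMEM192 (0.86, 0.83), GPR137 (0.83, 0.64) and CD6 (0.82, 0.81). CD6 had CD5 first, then MAGED2 (0.78, 0.54) and PNPLA7 (0.74, 0.67). CD2 had TRAF5 (0.82, 0.62), ATP7A (0.78, 0.85) and RAB29 (0.77, 0.72), and CD7 had MOB2 (0.79, 0.69), DMAC1 (0.75, 0.71) and DENND2D (0.75, 0.74). CD5 and CD6 were the only antigens among each other's 3 nearest genes.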

How the data were processed

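The authors deposited linear intensities for every probe set of each array, which per the submitters' processing notes had been made with GCRMA, with a version not given in the sources used here. They were floored at 1 and converted to log2. The median intensity of an array was 5.57 to 6.13, and between 32.2% and 35.5% of the 43035 probe sets reached the minimum. No detection calls were used, and the number of dogs limits the precision. Of the probe sets, 29254 were paired with exactly 1 gene symbol, 439 with several, 13167 with none, and 175 were controls. No symbol was updated through the gene table.

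Tests used R 4.3.3 with limma 3.58.1 (lmFit and eBayes), two-sided, with Benjamini-Hochberg adjustment over the 7500 genes that reached log2 4 in 4 or more of 34 dogs, called at an adjusted p under 0.05. T and B were compared with 2 group means, and the other comparisons were contrasts among 6 subtype means, with B taken as the mean over its 17 dogs. The fitting was tested on simulated data. The antigens, gene lists, tests and alternatives were chosen with earlier results of these data known. All 7 antigens are named, with the 3 genes most like each and up to 4 genes of smallest p from each partner list in the comparison described. PTPN6 is named as well, for its direction. The p-values measure the spread between dogs, 1 tumour each. The labels LBT and BL are used as given.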

Additional observations from a re-analysis of the deposited data

Results flagged for a closer look

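In each subtype of 4 to 10 dogs, the highest or lowest dog was picked out when its distance from the nearest other dog, divided by the range of the group, was above Dixon's critical value for that number of dogs. Of 35 groups checked 5 held such a dog, and that limit is set so that chance picks about 1 in 20. The 35 groups are the 7 antigens in the same 5 subtypes and are not independent. LBT replicate 2 was low for CD2, at 10.46 against 12.69 to 12.82 in the other LBT dogs. LBT replicate 3 was low for CD6, at 3.13 against 8.24 to 9.28. DLBCL replicate 3 was high for CD6, at 4.88, and for CD96, at 6.55, and its mean over the T cell receptor list of 6.95 was the highest of the DLBCL dogs. MZL replicate 1 was low for THY1, at 3.42 against 6.08 to 7.02 in the other MZL dogs. The causes were not tested.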

How the results depend on the processing

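All 7 antigens remained higher in T than in B under each setting tried and without any single dog. Over all comparisons, 818 of 855 antigen differences kept their sign and their side of the threshold across settings, 5 lost and 19 gained a call and 13 changed sign. When single dogs were left out, the same held for 2109 of 2142, with 6 lost, 12 gained and 15 of changed sign. None of the sign changes concerned a difference that was called. The antigens called in LBT against TZL, 1 as reported, were 0 with no filter or with sex, breed and age as covariates, and 2 with array weights, the mean of probe sets, the array set as a block, without that set or with low values set to the minimum, and 0 to 2 without a dog. In PTCL against TZL, 1 as reported, they were 0 with no filter, 2 with the mean of probe sets, the block or without the set, and 0 to 2 without a dog. In LBT against PTCL, 0 as reported, they were 1 with the mean of probe sets, without the set or with low values at the minimum, and 0 to 1 without a dog. In DLBCL against MZL they were 2 with array weights, and otherwise 0. In LBT against B, 6 as reported, they were 7 without the set or with the compared groups only, and 6 to 7 without a dog.

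Sign changes by setting were, for CD6 in the difference between grade steps (0.05 as reported), -0.42 with array weights, -0.016 with the mean of probe sets, -0.078 with its other probe set, -0.12 with covariates, -0.061 with the block, -0.68 without the set, -0.57 with low values at the minimum and between -0.66 and 0.68 when single dogs were left out, 10 of them turning its sign. CD6 in LBT against PTCL (-0.30 as reported) was 0.32 with the mean of probe sets, 0.94 with its other probe set, and -0.98 to 1.07 without a dog, with 0.40 and 1.07 without PTCL replicate 2 or LBT replicate 3. CD6 in LBT against TZL was 0.80 with its other probe set and -1.89 to 0.16 without a dog, with the positive value without LBT replicate 3. CD2 in LBT against TZL was -0.071 with covariates, -0.0023 without the set and -0.020 to 0.77 without a dog, negative without LBT replicate 4. In PTCL against TZL it was -0.38 to 0.18 without a dog, positive without PTCL replicate 4. CD96 in DLBCL against MZL (0.39 as reported) was -0.083 with another probe set.

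Counts over all genes moved by over 1.5 times in LBT against PTCL, 51 as reported, to 33 with the stricter filter, 0 with the compared groups only, 4 with covariates, 82 with the block, 96 with low values at the minimum and 11 to 173 without a dog. In DLBCL against MZL, 0 as reported, they were 17 with the stricter filter, 378 with array weights, 13 with the mean of probe sets, 20 with both arrays of the repeated case, 19 without the set, 39 with low values at the minimum and 0 to 72 without a dog. In PTCL against TZL 1025 became 547 without the set and 589 without PTCL replicate 2, in PTCL against B 1642 became 1076 without PTCL replicate 3, and for the grade steps 147 became 45 without the set and 61 to 280 without a dog. The causes were not tested. No paired analysis was possible because each dog belongs to 1 group. The labels carry no replicate numbers, those used here being given in the order of the deposited samples.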

Other observations

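The dog labelled NBNT, described in the labels as neither a T-cell nor a B-cell lymphoma, had pan-T antigens at T levels. CD2 was 11.98, CD5 9.50, CD6 8.40, CD7 8.70, CD52 10.55, THY1 9.29 and CD96 5.76 on the log2 scale. Of the 7, 6 were above every B dog, with CD96 the exception, and 5 were within the range of the TZL dogs, with CD52 and CD96 below it. Its CD3E was 11.38 and its MS4A1 10.13, and its mean over the B cell markers was 7.20, against 2.48 to 7.39 in the T dogs and 7.29 to 8.52 in the B dogs. This is 1 dog, with no replicate check.

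The 2 arrays of the repeated DLBCL case gave CD2 at 10.18 and 10.25 and CD96 at 3.02 and 2.59. They were farther apart for CD5, at 4.19 and 5.50, and for CD52, at 3.58 and 5.01, near the minimum.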
